A study of Homo sapiens with 6 samples.

Results

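DNA replication was followed through 52 genes that encode the origin recognition complex, the licensing factors, the replicative helicase, the DNA polymerases and the proteins that work at the fork. The genes were taken by symbol from a table of read counts for 20610 genes, and all 52 were found and passed the filter on low counts, so none is missing from what follows. PCNA, GINS1 and MCM8 belong to the same machinery but lie on chromosome 20, whose genes the counts mostly lack. PCNA and GINS1 had no count in any library and MCM8 had 1 to 17, so none of them was read as expression.

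The cells were HT1080, an established human fibrosarcoma line, sampled as PGK1 knockout cells (KO, 3 libraries) and as wild-type cells (WT, 3 libraries). PGK1 encodes phosphoglycerate kinase, a glycolytic enzyme, and was disrupted with CRISPR-Cas9. Neither group is labelled with a drug, a time point or a second allele, and it is not stated if the KO cells were 1 clone or a pool, nor if replicate libraries stem from different cultures. The p-values therefore rest on the spread between libraries alone, and that spread may be technical. All libraries carry the same batch label.

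Summed counts were 30175903 to 43890830 in the KO libraries and 39150295 to 47047186 in the WT libraries, so that 1 count was worth 0.0213 to 0.0331 CPM (counts per library total of common size) before the TMM factors described below. PGK1 itself had 149 to 165 CPM in the KO libraries, against 1408 to 1447 CPM in the WT libraries. The mesenchymal markers summed to 3447 to 4051 CPM in the KO libraries and 12970 to 13499 CPM in the WT libraries, and all 6 of them, VIM and FN1 included, were lower in KO. Epithelial markers summed to 4.19 to 5.07 CPM in the KO libraries and 1.42 to 2.53 CPM in the WT libraries, with EPCAM at 0 in all libraries. CDH1 and ESRP1 were higher in KO, CLDN4 was lower, and EPCAM and GRHL2 were too low to test. Endothelial markers summed to 2.17 to 3.28 CPM in the KO libraries and 10.1 to 12.04 CPM in the WT libraries. Most of that sum was PECAM1, which averaged 1.90 CPM in KO and 10.02 CPM in WT. CDH5 was also lower in KO but averaged only 0.36 CPM in WT, and VWF (log2 fold change 0.67) did not pass the test. Haematopoietic markers stayed under 1 CPM in each library. The part of these differences in the replication genes was not tested. In bulk RNA, fewer cells in a cycle phase cannot be told apart from less RNA per cell.

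Replication is prepared in G1, when the origin recognition complex, CDC6 and CDT1 load the MCM2 to MCM7 ring onto DNA, and geminin (GMNN) blocks CDT1 after S phase has begun. The kinase CDC7 with DBF4, together with cyclin-dependent kinases, then recruits CDC45 and GINS to turn the ring into the active CMG helicase. Polymerase alpha-primase lays primers, polymerase epsilon extends the leading strand, and polymerase delta extends the lagging strand with the help of the RFC clamp loader and its sliding clamp. Many of these genes are known targets of E2F transcription factors, whose sites resemble TTTCCCGC or TTTGGCGC.

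The promoter stretches below are shown because they hold E2F-type letters next to genes that changed in opposite directions or did not pass the test. They come from RefSeq promoter windows of GRCh38.p14, from 250 bases before to 50 bases after the transcription start, and are printed 5′ to 3′ on the gene's strand. Capitals mark matches to TTTCCCGC, TTTCGCGC, TTTGCCGC or TTTGGCGC on either strand. The capitals in MCM6 and TIPIN are matches on both strands that overlap each other. MCM6 (chr2:135876486-135876631, minus strand), MCM3 (chr6:52284898-52284927, minus strand), TIPIN (chr15:66356731-66356760, minus strand) and POLA1 (chrX:24693745-24693824, plus strand) rose in KO. CDT1 (chr16:88803743-88803772, plus strand), MCM7 (chr7:100101566-100101595, minus strand), POLA2 (chr11:65261898-65261927, plus strand) and LIG1 (chr19:48170440-48170469, minus strand) fell in KO, and GMNN (chr6:24775297-24775376, plus strand) did not pass the test. The TIPIN and MCM7 stretches each belong to the window of only 1 of the gene's annotated starts. The stretches of CDT1, MCM7, POLA2 and LIG1 overlap annotated exons.
MCM6: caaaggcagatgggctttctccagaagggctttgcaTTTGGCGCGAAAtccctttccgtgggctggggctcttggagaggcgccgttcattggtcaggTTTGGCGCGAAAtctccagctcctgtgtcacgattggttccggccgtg
MCM3: cggatggtacgTTTCCCGCcaccgcggggc
TIPIN: ccgcacggaTTTGGCGCCAAAcgctgcggg
POLA1: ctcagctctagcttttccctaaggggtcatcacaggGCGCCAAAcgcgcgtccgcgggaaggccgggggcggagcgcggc
CDT1: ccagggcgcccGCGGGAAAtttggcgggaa
MCM7: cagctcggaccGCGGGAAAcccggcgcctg
POLA2: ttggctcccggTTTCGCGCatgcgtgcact
LIG1: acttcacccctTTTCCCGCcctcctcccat
GMNN: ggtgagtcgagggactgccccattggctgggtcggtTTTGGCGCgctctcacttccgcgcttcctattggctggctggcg

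The replication genes moved in both directions. Of 52 genes, 18 were higher and 20 were lower in KO at an adjusted p under 0.05 (edgeR quasi-likelihood test, Benjamini-Hochberg over 13249 genes), and 14 did not pass. Over all genes tested, 76.4% passed, 40.0% higher and 36.3% lower in KO, so the 73.1% of replication genes that passed is near the background. A change of at least 2-fold was reached by 4 genes upward (GINS3, TIPIN, MCM3 and MCM9) and 5 downward (POLD4, POLD1, CDT1, RFC4 and RPA3), or 17.3% of the list. Over all genes tested, 15.5% rose and 15.5% fell by that much, 31.0% together, so the list held a smaller share of such changes. This difference was not tested. The KO and WT libraries did not overlap in 39 of 52 genes (75.0%), against 79.2% of all genes tested. The median log2 fold change was 0.03 in the list and 0.05 over all genes tested.

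The balance of rises and falls depends on how the libraries are scaled. With library size alone in place of TMM (trimmed mean of M-values) scaling, 26 genes were higher and 15 lower, or 63.4% of the called genes higher. Over all genes tested, 63.6% of the called genes were then higher, so the list followed the background, and the median log2 fold change of all genes moved by 0.22. The list held 0.199% to 0.200% of all counts in the KO libraries and 0.181% to 0.182% in the WT libraries. After TMM scaling it summed to 1820 to 1887 CPM in the KO libraries, against 1953 to 1968 CPM in the WT libraries, so the direction of the summed level turns with the scaling. Of the 38 genes that passed the test, 32 kept their call and direction in all 18 alternative settings, 17 of them higher and 15 lower. Of the 14 genes that did not pass, only 4 stayed uncalled in all 18, and the others passed in at least 1. CPM below are TMM-scaled. Exons of 15 of the 52 genes overlap those of another counted gene, and their values are uncertain to that extent. Of the partners, GSE1 (of GINS2), C9orf43 (of POLE3) and WSB2 (of RFC5) had log2 fold changes of 0.70, 4.63 and 0.19, with C9orf43 at 0.49 CPM on average in KO. TPRA1 (of MCM2, -0.06) and MORC3 (of CHAF1B, 0.15) did not pass the test, and the partners of the other 10 genes are given beside them. Exons of ORC2, GINS3, GINS4, POLA2, POLD1, POLD3, POLD4, LIG1, TIPIN and CLSPN overlap annotated genes that have no entry in the counts. The same doubt applies to these genes. Named pseudogenes exist for 6 of the 52 genes (DBF4, POLD2, RFC3, RFC5, RPA2 and FEN1), and their part in the counts was not tested.

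**Figure D1:**
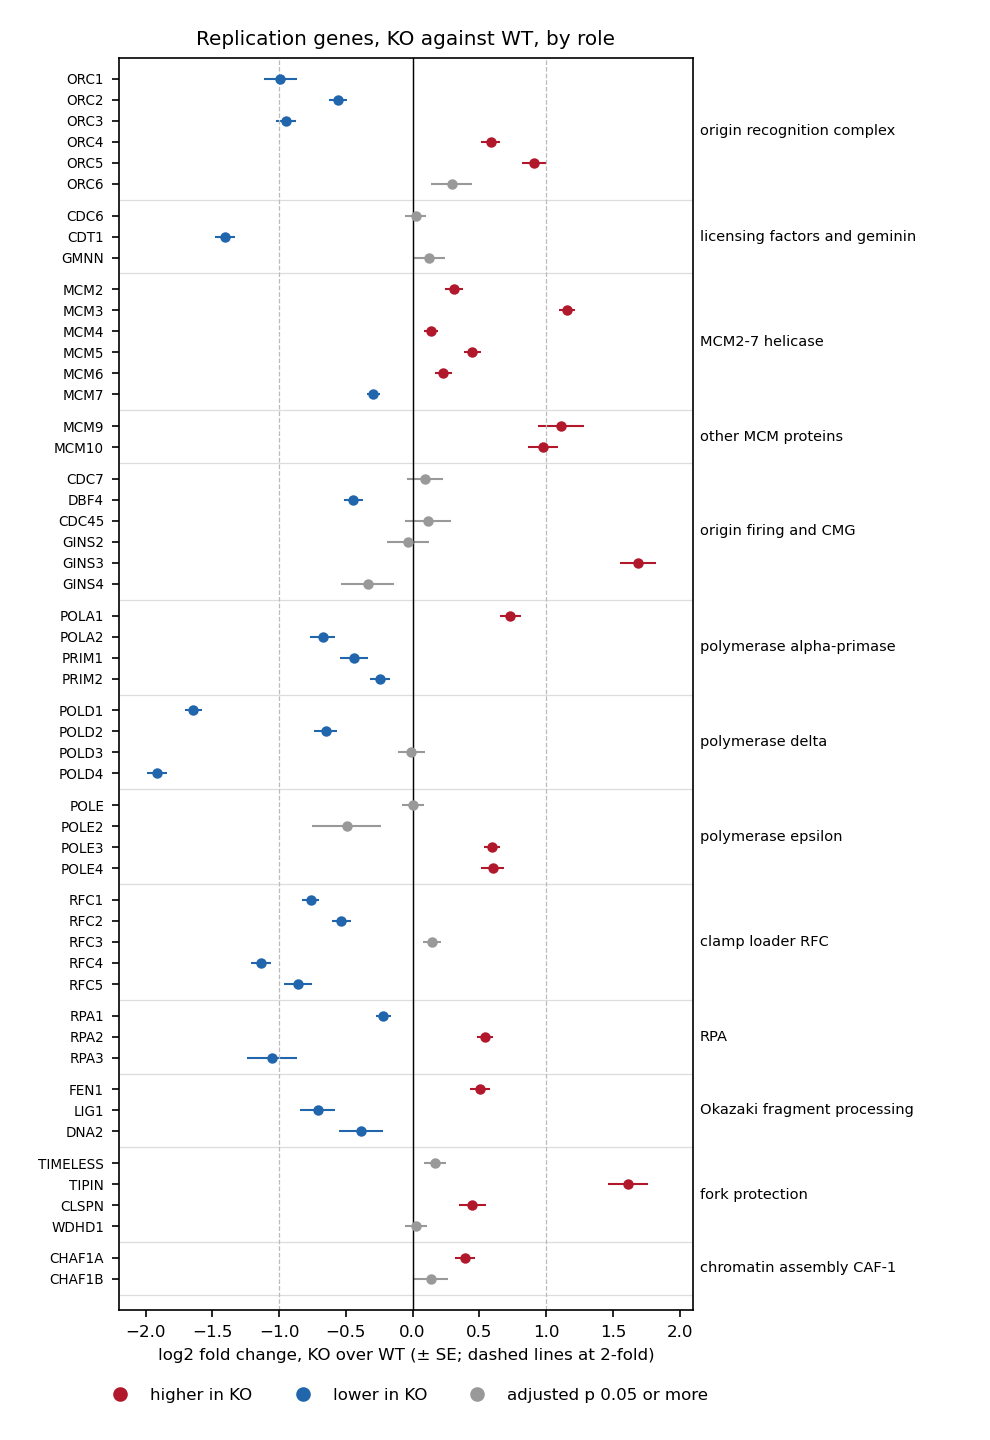
Log2 fold change of the 52 replication genes, KO over WT, in 13 role groups from top to bottom; points are edgeR estimates, bars are standard errors, and dashed lines mark 2-fold. Polymerase delta holds the largest falls (POLD4 -1.91, POLD1 -1.64), GINS3 (1.69) and TIPIN (1.61) the largest rises, and most groups hold genes on both sides of 0.

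Within the origin recognition complex, the 6-subunit ATPase that marks origins, 2 subunits were higher in KO, 3 were lower and ORC6 did not pass the test. Here and in each group below, such counts stand beside 76.4% of all genes tested that passed and 79.2% that did not overlap. ORC5, an ATP-binding subunit of the core ring, had 31.2, 38.3 and 34.4 CPM in the KO libraries, against 16.7, 20.2 and 18.2 CPM in the WT libraries. ORC1, the subunit with the main ATPase site and the one whose level varies over the cell cycle in human cells, had 6.14, 8.42 and 7.27 CPM in the KO libraries, against 14.5, 15.2 and 13.6 CPM in the WT libraries. The groups did not overlap for either gene, and they lay in opposite order. The log2 fold changes were 0.91 ± 0.09 (SE) for ORC5 with an adjusted p of 4.78e-07, and -0.99 ± 0.13 for ORC1 with an adjusted p of 4.29e-06 (edgeR quasi-likelihood test, n = 3 each).

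The other core subunits also parted. ORC4 rose by 0.59 on the log2 scale, with 51.2 to 56.5 CPM in the KO libraries and 33.4 to 38.3 CPM in the WT libraries. ORC3 fell by 0.95, with 17.7 to 18.4 CPM in the KO libraries and 32.5 to 36.2 CPM in the WT libraries, and ORC2 fell by 0.56. ORC6, the subunit least tightly bound to the core, had 7.40 to 11.4 CPM in the KO libraries and 7.70 to 8.86 CPM in the WT libraries, and the groups overlapped. ORC4 exons overlap ACVR2A and MBD5, whose log2 fold changes were 1.18 and -0.66.

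Among the licensing factors, CDT1 fell and its inhibitor geminin did not pass the test. CDT1, on chromosome 16 (GRCh38, 88803213 to 88809258, plus strand), brings the MCM ring to the origin. CDT1 had 26.7, 23.9 and 29.2 CPM in the KO libraries, against 72.4, 68.1 and 70.4 CPM in the WT libraries. Every KO library lay below every WT library, and the log2 fold change was -1.40 ± 0.08 (SE; edgeR adjusted p = 2.62e-10). GMNN had 11.3, 9.40 and 10.01 CPM in the KO libraries, against 9.27, 10.1 and 8.86 CPM in the WT libraries. CDC6, the ATPase that closes the ring-loading complex, had 22.4, 25.1 and 23.2 CPM in the KO libraries and 23.8, 23.7 and 22.0 CPM in the WT libraries. The groups overlapped for both genes, with log2 fold changes of 0.12 for GMNN and 0.02 for CDC6 and adjusted p of 0.346 and 0.790. With library size alone the values of GMNN (0.35) and CDC6 (0.25) passed the threshold, as they did in both FPKM fits.

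The ratio of CDT1 counts to GMNN counts within a library does not depend on scaling. It was 2.36, 2.54 and 2.92 in the KO libraries, against 7.81, 6.75 and 7.95 in the WT libraries. The log2 ratio was 1.38 ± 0.16 in KO and 2.90 ± 0.13 in WT (SD, n = 3 each), a difference of -1.53. The exact 2-sided permutation test gave p = 0.1, the smallest p that the 20 splits of 3 against 3 allow, so it cannot pass 0.05.

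The MCM2 to MCM7 ring showed 5 rises and 1 fall, and the groups did not overlap for any of the 6 subunits. Over all genes tested, 76.4% passed (40.0% higher and 36.3% lower in KO) and 79.2% did not overlap. MCM3 rose most, with 93.8, 100.3 and 92.8 CPM in the KO libraries, against 43.4, 44.2 and 41.3 CPM in the WT libraries. Its log2 fold change was 1.15 ± 0.06 (SE; edgeR adjusted p = 1.71e-10). MCM7, the subunit that sits beside MCM4 in the ring, went the other way, with 180.6, 171.6 and 170.8 CPM in the KO libraries and 210.9, 214.0 and 216.0 CPM in the WT libraries. MCM7 fell by 0.29 on the log2 scale (edgeR adjusted p = 6.08e-05), and with library size alone its value of -0.07 did not pass (adjusted p = 0.192), nor did it in either FPKM fit. MCM7 exons overlap AP4M1, which had a log2 fold change of -1.16.

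The remaining ring subunits rose by less. MCM5 had 80.0, 78.1 and 88.7 CPM in the KO libraries and 62.2, 58.3 and 60.4 CPM in the WT libraries, a log2 fold change of 0.45. MCM2, which carries a histone-binding tail, had 122.7, 116.1 and 139.4 CPM in the KO libraries and 106.6, 100.4 and 97.4 CPM in the WT libraries, a log2 fold change of 0.31. MCM6 had 61.2, 66.3 and 70.1 CPM in the KO libraries and 56.1, 57.5 and 54.6 CPM in the WT libraries, a log2 fold change of 0.23. Here the lowest KO library was close to the highest WT library. MCM4 had 99.7, 101.2 and 99.6 CPM in the KO libraries and 88.4, 93.4 and 91.6 CPM in the WT libraries, a log2 fold change of 0.14. MCM4 passed the test at an adjusted p of 0.0256 (edgeR quasi-likelihood test) but did not pass in 9 of the 18 alternatives, each single library left out among them.

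Summed over the 6 subunits, the deposited FPKM (fragments per kilobase and depth) were 213 ± 0.61 in KO and 162 ± 0.54 in WT (SD, n = 3 each), a ratio of 1.32. With TMM scaling the ratio was 1.13. MCM7 made up 31.4% ± 1.39 of that sum in KO and 43.4% ± 0.76 in WT, and MCM3 made up 15.4% ± 0.96 in KO and 7.81% ± 0.23 in WT. MCM7 was the most abundant subunit per length in both groups, and the ratio of the most to the least abundant subunit was 3.56 in KO and 5.56 in WT.

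MCM9, a helicase of recombination repair, and MCM10, which helps to activate CMG, both rose. MCM9 had 9.67, 8.94 and 8.60 CPM in the KO libraries, against 3.97, 5.36 and 3.22 CPM in the WT libraries, and all KO libraries were above all WT libraries (log2 fold change 1.11 ± 0.17 SE; edgeR adjusted p = 3.40e-05). MCM9 exons overlap those of ASF1A, a histone chaperone gene with a log2 fold change of 1.66 and with 46.3 CPM in KO and 14.7 CPM in WT on average. No source used here states the strand setting of the counting, and without it the reads of the 2 genes cannot be told apart. MCM10 had 13.2 to 14.7 CPM in the KO libraries and 6.59 to 7.61 CPM in the WT libraries, a log2 fold change of 0.98.

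**Figure D2:**
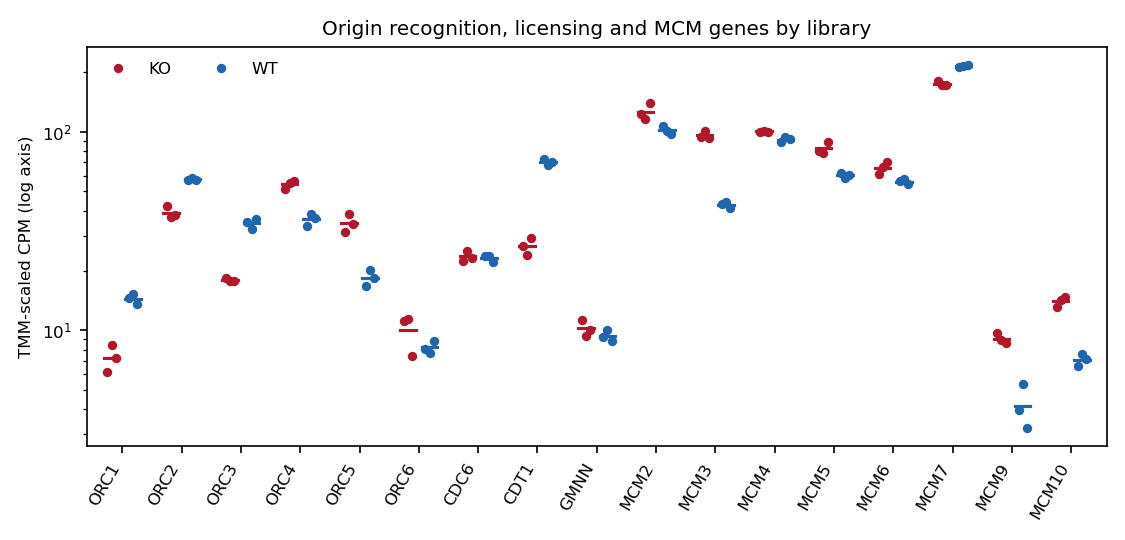
TMM-scaled CPM on a log axis for the origin recognition, licensing and MCM genes; points are libraries (KO left, WT right, 3 each) and lines are group means. CDT1 is at 23.9 to 29.2 CPM in KO and 68.1 to 72.4 CPM in WT, MCM3 shows the opposite order, and CDC6 and GMNN overlap.

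Among the firing factors and CMG partners, GINS3 rose, DBF4 fell and the other 4 genes did not pass the test. GINS3, a subunit of the GINS tetramer, had 18.6, 17.8 and 22.1 CPM in the KO libraries, against 7.09, 6.12 and 4.92 CPM in the WT libraries. The groups lay far apart, and the log2 fold change of 1.69 ± 0.14 (SE; edgeR adjusted p = 2.84e-08) was the largest rise in the list. GINS2 had 6.20 to 6.46 CPM in the KO libraries and 5.28 to 7.73 CPM in the WT libraries, and GINS4 had 2.61 to 3.92 CPM in the KO libraries and 3.63 to 4.78 CPM in the WT libraries. Both overlapped between the groups. GINS3 made up 58.4% ± 2.92 of the summed FPKM of these 3 genes in KO and 29.4% ± 6.46 in WT.

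DBF4, the activating subunit of the CDC7 kinase, had 33.7, 29.5 and 31.5 CPM in the KO libraries, against 43.0, 45.2 and 40.7 CPM in the WT libraries. The groups did not overlap, and the log2 fold change was -0.44 ± 0.07 (SE; edgeR adjusted p = 6.02e-05). DBF4 exons overlap SLC25A40, which had a log2 fold change of -1.73 and averaged 7.88 CPM in KO and 26.3 CPM in WT. CDC7 had 9.19 to 9.83 CPM in the KO libraries and 7.86 to 10.9 CPM in the WT libraries. CDC45 had 4.80 to 5.32 CPM in the KO libraries and 3.80 to 5.60 CPM in the WT libraries.

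Polymerase delta held the largest falls of the list. POLD4, the small accessory subunit, lies on chromosome 11 (GRCh38, 67350777 to 67356972, minus strand). POLD4 had 14.9, 16.4 and 17.9 CPM in the KO libraries, against 62.6, 60.2 and 61.9 CPM in the WT libraries. POLD1, the catalytic and proofreading subunit on chromosome 19 (50384204 to 50418016, plus strand), had 25.5, 24.8 and 23.5 CPM in the KO libraries, against 79.0, 74.6 and 77.3 CPM in the WT libraries. All KO libraries lay far below all WT libraries for both genes. The fitted levels were 3.76-fold lower in KO for POLD4 (log2 fold change -1.91 ± 0.08 SE) and 3.12-fold lower for POLD1 (-1.64 ± 0.06), with edgeR adjusted p of 1.07e-11 and 7.88e-12.

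POLD2, which bridges the catalytic subunit to the rest, had 74.0, 62.3 and 81.6 CPM in the KO libraries and 119.4, 114.3 and 108.4 CPM in the WT libraries, and fell by 0.65. POLD3, which also serves in break-induced replication, had 14.2, 15.6 and 14.2 CPM in the KO libraries and 13.1, 15.4 and 15.8 CPM in the WT libraries, and the groups overlapped. The summed deposited FPKM of the 4 subunits, without the TMM scaling of the CPM above, was 66.0 ± 4.38 in KO and 116.3 ± 2.45 in WT (SD, n = 3 each).

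Polymerase alpha-primase showed 1 rise and 3 falls. POLA1, the catalytic subunit, had 24.7, 26.7 and 27.1 CPM in the KO libraries, against 15.9, 16.0 and 15.3 CPM in the WT libraries. POLA2, its regulatory partner, had 11.4, 11.1 and 12.4 CPM in the KO libraries, against 18.3, 17.3 and 20.1 CPM in the WT libraries. These partners thus lay in opposite order with no overlap, at log2 fold changes of 0.73 ± 0.08 and -0.67 ± 0.10 (SE; edgeR adjusted p of 7.97e-07 and 1.52e-05). The primase subunits PRIM1 and PRIM2 fell by 0.44 and 0.24 on the log2 scale, and lost the call in 2 and 3 of the 18 alternatives, library size alone among them for both. PRIM1 exons overlap NACA and HSD17B6, whose log2 fold changes were -0.23 and -0.93. NACA averaged 596 CPM in KO and 700 CPM in WT, against 13.6 CPM in KO and 18.4 CPM in WT for PRIM1. HSD17B6 averaged 0.98 CPM in KO and 1.87 CPM in WT. The summed deposited FPKM of the 4 genes, without TMM scaling, was 32.4 ± 1.15 in KO and 33.05 ± 1.22 in WT. The CPM and fold changes above are TMM-scaled, so this sum does not show that the total level was unchanged. For the MCM2 to MCM7 sum, TMM scaling moved the ratio of KO over WT from 1.32 to 1.13.

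In polymerase epsilon the small histone-fold subunits rose and the others did not pass the test. POLE4 had 24.5, 22.1 and 25.7 CPM in the KO libraries, against 16.9, 15.2 and 15.6 CPM in the WT libraries, with no overlap and a log2 fold change of 0.60 ± 0.09 (SE; edgeR adjusted p = 1.84e-05). Its partner POLE3 had 65.8 to 70.3 CPM in the KO libraries and 42.4 to 47.1 CPM in the WT libraries, and also rose by 0.60. POLE, the catalytic subunit, had 33.1 to 40.7 CPM in the KO libraries and 35.7 to 37.4 CPM in the WT libraries. POLE2, the second subunit, was measured with few counts, at 1.32 to 2.17 CPM in the KO libraries and 2.06 to 2.50 CPM in the WT libraries, and both genes overlapped between the groups.

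The clamp loader RFC fell in 4 of its 5 subunits, beside 36.3% of all genes tested that were lower in KO. RFC4 had 15.4, 15.1 and 14.2 CPM in the KO libraries, against 32.1, 33.1 and 33.2 CPM in the WT libraries. The libraries of each group lay close together and the groups did not overlap, with a log2 fold change of -1.14 ± 0.08 (SE; edgeR adjusted p = 3.27e-09). RFC4 exons overlap EIF4A2, a translation initiation gene with a log2 fold change of -0.48. EIF4A2 averaged 1015 CPM in KO and 1415.5 CPM in WT, far above the levels of RFC4. The part of EIF4A2 reads in the RFC4 counts was not tested. RFC5 fell by 0.86, RFC1, the large subunit, by 0.76 and RFC2 by 0.53. RFC3 had 36.6 to 37.9 CPM in the KO libraries and 32.0 to 35.3 CPM in the WT libraries. The groups of RFC3 did not overlap, but its adjusted p was 0.0674 (edgeR quasi-likelihood test), and it passed in 5 of the 18 alternatives, library size alone among them.

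RPA, the trimer that coats single-stranded DNA, split by subunit. RPA2, the subunit phosphorylated under replication stress, had 65.6, 64.9 and 72.4 CPM in the KO libraries, against 47.5, 45.9 and 46.0 CPM in the WT libraries. RPA3, the smallest subunit, had 4.24, 4.03 and 6.55 CPM in the KO libraries, against 12.1, 9.06 and 9.46 CPM in the WT libraries. Neither gene overlapped between the groups, and the log2 fold changes were 0.54 ± 0.06 and -1.05 ± 0.19 (SE; edgeR adjusted p of 1.61e-06 and 1.73e-04). RPA1, the main DNA-binding subunit, fell by 0.22 and lost the call in 3 of the 18 alternatives, those with library size alone and with FPKM. RPA1 exons overlap SMYD4, which had a log2 fold change of -0.62. RPA3 exons overlap UMAD1, whose log2 fold change of 0.19 did not pass the test.

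Of the enzymes that finish Okazaki fragments, the flap nuclease FEN1 rose and the ligase LIG1 fell. FEN1 had 63.8, 61.5 and 74.1 CPM in the KO libraries, against 46.7, 47.9 and 45.8 CPM in the WT libraries. LIG1 had 10.6, 9.92 and 7.72 CPM in the KO libraries, against 16.8, 16.3 and 13.3 CPM in the WT libraries. Neither gene overlapped between the groups, with log2 fold changes of 0.50 ± 0.07 and -0.71 ± 0.13 (SE; edgeR adjusted p of 1.47e-05 and 1.78e-04). FEN1 exons overlap FADS2 and TMEM258, whose log2 fold changes were -0.80 and -1.03. DNA2, a helicase and nuclease for long flaps, had 4.19 to 6.03 CPM in the KO libraries and 5.75 to 6.95 CPM in the WT libraries. DNA2 was the only called gene of the 38 whose groups overlapped, at a log2 fold change of -0.38 and an edgeR adjusted p of 0.0471, and the call was lost in 12 of the 18 alternatives.

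In the fork protection group, TIPIN rose while its partner TIMELESS did not pass the test. TIPIN, on chromosome 15 (GRCh38, 66336206 to 66386746, minus strand), had 15.2, 15.5 and 15.4 CPM in the KO libraries, against 3.70, 5.89 and 5.45 CPM in the WT libraries. The log2 fold change was 1.61 ± 0.15 (SE; edgeR adjusted p = 1.45e-07). TIMELESS, with which TIPIN forms a dimer, had 24.78 to 29.04 CPM in the KO libraries and 22.94 to 24.76 CPM in the WT libraries. The TIMELESS groups narrowly did not overlap, at a log2 fold change of 0.17 and an edgeR adjusted p of 0.0777. TIMELESS passed in 4 of the 18 alternatives, library size alone among them. CLSPN, the mediator of CHK1 activation, had 15.4 to 18.9 CPM in the KO libraries and 12.4 to 12.7 CPM in the WT libraries and rose by 0.45. WDHD1, which links polymerase alpha to the helicase, had a log2 fold change of 0.03 and overlapped between the groups.

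In the histone chaperone CAF-1, which loads histones behind the fork, CHAF1A rose. CHAF1A had 34.5, 33.8 and 34.0 CPM in the KO libraries, against 27.9, 26.3 and 23.7 CPM in the WT libraries, with no overlap and a log2 fold change of 0.39 ± 0.08 (SE; edgeR adjusted p = 2.62e-04). CHAF1B had 10.6 to 14.1 CPM in the KO libraries and 10.1 to 11.5 CPM in the WT libraries and overlapped. CHAF1A exons overlap UBXN6, which had a log2 fold change of -0.56.

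**Figure D3:**
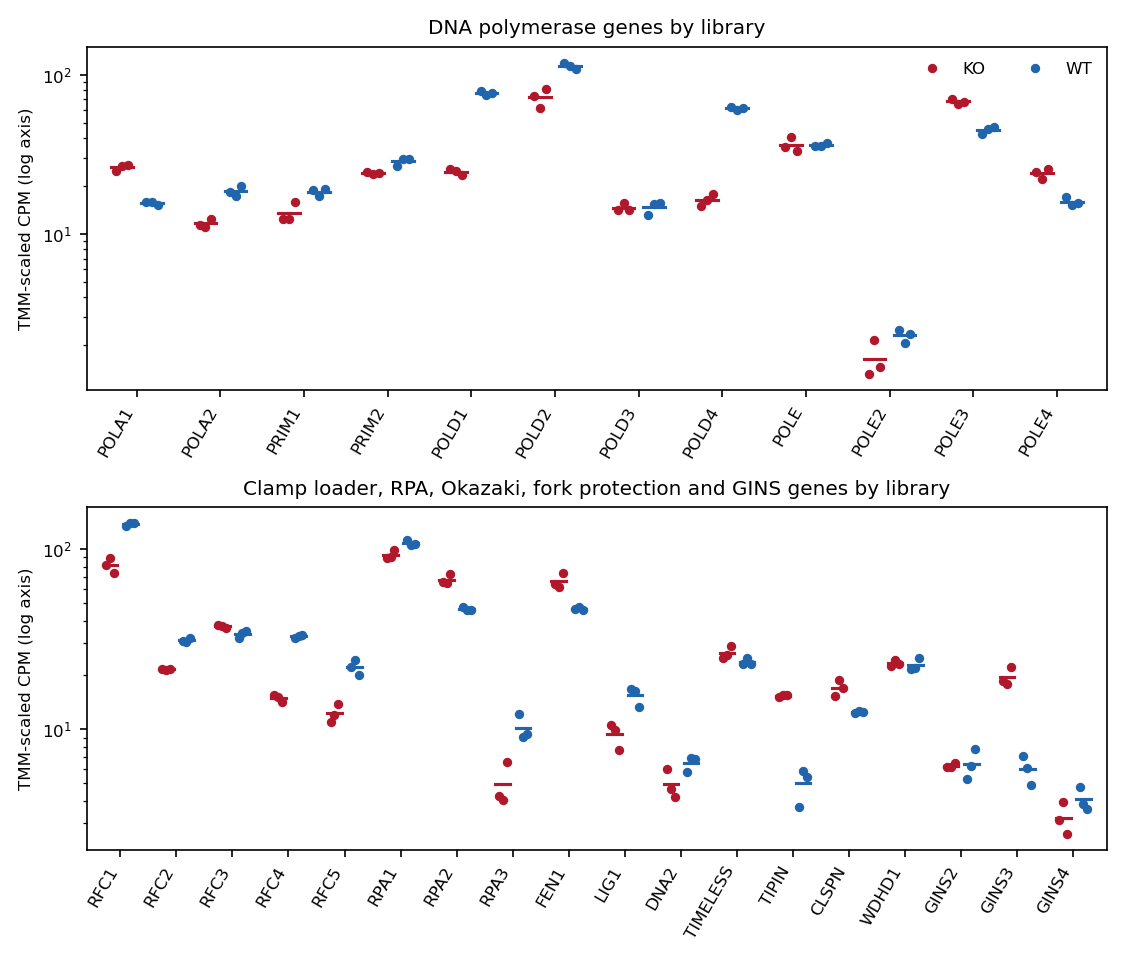
TMM-scaled CPM on a log axis for the polymerase genes (top) and for the RFC, RPA, Okazaki, fork protection and GINS genes (bottom); points are libraries (KO left, WT right, 3 each) and lines are group means. POLD1 and POLD4 are far lower in KO, while TIPIN and GINS3 are far higher and POLD3, POLE and WDHD1 overlap.

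Per length, the order of subunits by group mean was not the same in KO and WT for ORC, the MCM ring, GINS, polymerase alpha-primase and RFC. The order of means was the same in KO and WT for polymerase delta, polymerase epsilon, RPA and CAF-1. Single libraries did not always keep the order of the means. In WT replicate 1, RPA1 (45.1%) stood above RPA2 (44.9%) and PRIM1 (36.7%) above PRIM2 (35.2%). ORC5 was the most abundant ORC subunit in KO, at 30.4% ± 2.37 of the summed FPKM, against 15.7% ± 1.31 in WT, where it was the third. ORC2 was the most abundant in WT, at 21.4% ± 1.93 in KO and 30.6% ± 0.63 in WT. RFC3 led its complex by mean in KO with 28.0% ± 0.50, against 16.7% ± 0.52 in WT, where it was the fourth. RFC1 was close behind in KO at 26.9% ± 1.88, and in KO replicate 2 it stood above RFC3 (28.8% against 27.4%). POLD2 stayed first in polymerase delta, at 64.9% ± 3.32 in KO and 49.8% ± 1.30 in WT (SD, n = 3 each for all shares). POLD4 was second in both groups, with 15.8% ± 1.497 in KO and 28.9% ± 0.63 in WT. RPA3 remained the least abundant RPA subunit, at 3.85% ± 0.81 in KO and 8.79% ± 1.06 in WT. These shares do not depend on library scaling but rest on 1 fixed length per gene, and no test was made on them.

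**Figure D4:**
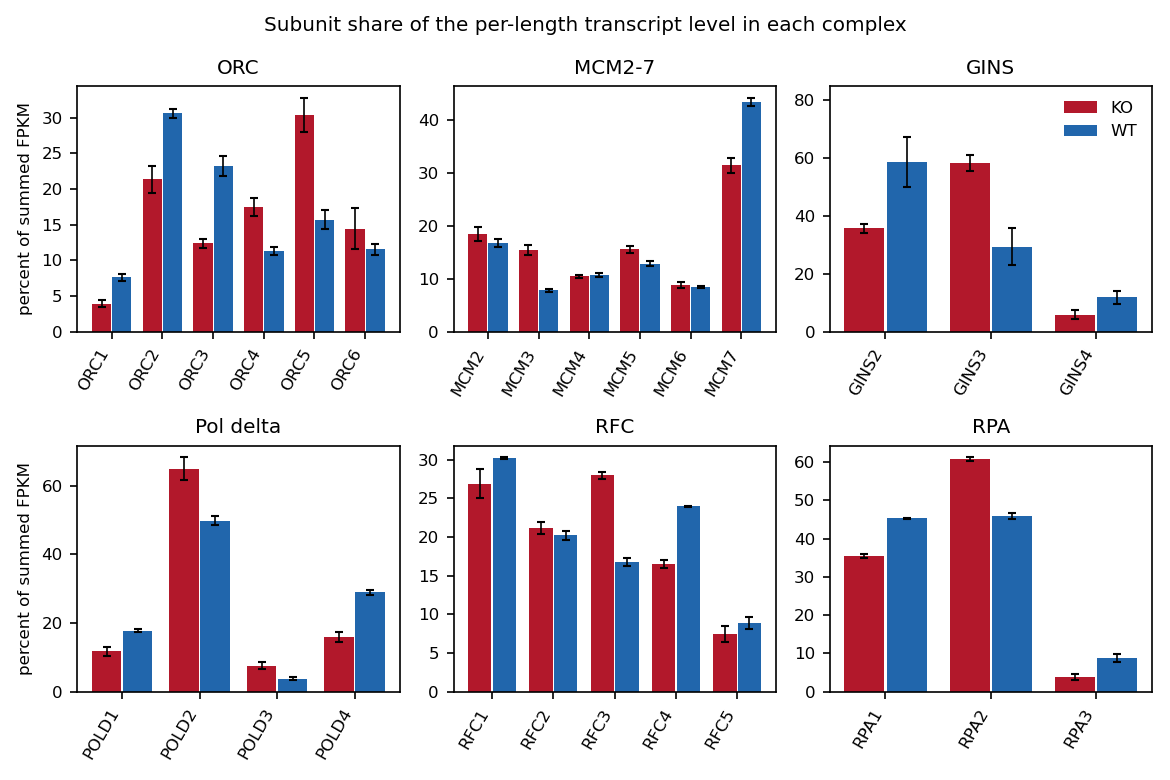
Share of each subunit in the summed FPKM of 6 complexes, in percent; bars are means (KO left, WT right) and error bars are SD of 3 libraries each. ORC5, MCM3, GINS3 and RFC3 take a larger share in KO, and MCM7, POLD4 and RFC4 a larger share in WT.

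A RefSeq promoter window was found for 45 of the 52 genes. MCM4, MCM5, GINS4, POLD3, RPA2, RPA3 and DNA2 had none. At least 1 of the E2F-type words stood in the windows of 20 of these 45 genes (44.4%), against 3.99% of all 27305 genes with a window. Those 27305 genes, also the base for the words below, were not limited to the 13249 genes tested, as the 45 were. Among those 20 genes, 8 were higher in KO, 5 were lower and 7 did not pass, and their log2 fold changes ran from -1.40 (CDT1) to 1.69 (GINS3). Among the 25 genes without the words, 7 rose, 13 fell and 5 did not pass, over a range of -1.91 (POLD4) to 1.11 (MCM9). Over all genes tested, 40.0% were higher and 36.3% lower in KO. The difference between genes with and without the words was not tested. The CCAAT word, on either strand, was in the windows of 57.8% of the 45 genes, against 39.7% of all genes. TTTGAA or TTCGAA, the core of the cell cycle homology region known from G2/M promoters, was in 6.67% of them, against 19.5% of all genes. A match is a description of letters, and its absence says only that the word is not in this window.

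**Figure D5:**
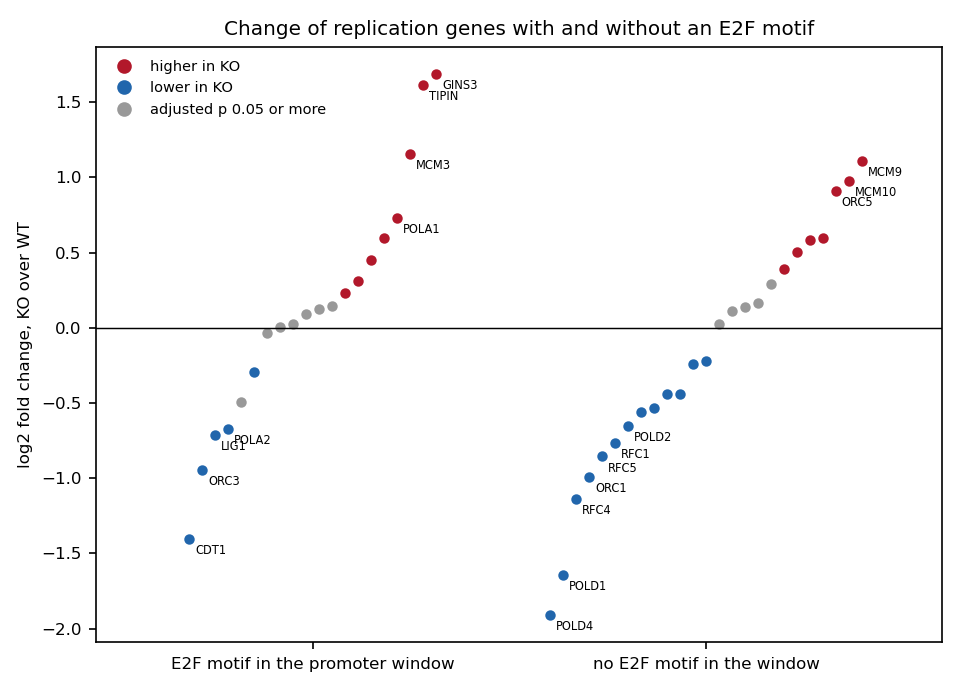
Log2 fold change, KO over WT, of the 45 replication genes with a promoter window, ordered by value within the 20 genes with an E2F word (left) and the 25 genes without (right). Both sides hold rises and falls; CDT1, LIG1, POLA2 and MCM7 fell with the word present, and MCM9, MCM10 and ORC5 rose without it.

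Neighbouring genes of the pathway were also mixed. Of 19 other licensing and firing regulators, 10 were higher in KO, 7 were lower and 2 did not pass. These are 89.5% called, against 76.4% of all genes tested (40.0% higher and 36.3% lower in KO). The largest rises were LRWD1, an ORC-associated protein, at 0.91 and cyclin E2 (CCNE2) at 0.87 on the log2 scale. The largest falls were cyclin A2 (CCNA2) at -2.36 and its kinase CDK2 at -1.61. CCNA2 had 7.47 to 7.65 CPM in the KO libraries, against 36.8 to 40.8 CPM in the WT libraries. Of 21 other fork, clamp and chromatin factors tested, 6 rose, 8 fell and 7 did not pass, or 66.7% called against the same 76.4%. ASF1A (1.66) and the ribonuclease H2 subunit RNASEH2C (0.73) had the largest rises, and the PCNA-associated factor PCLAF (-1.51) and the clamp loader subunit CHTF18 (-1.05) the largest falls. TOP1, the list's remaining gene, lies on chromosome 20, was listed at 0 in all libraries and was not tested.

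G2/M genes, a list given for comparison and chosen with earlier results of these data known, moved one way. All 12 were lower in KO, at a median of -2.15 on the log2 scale with a range from -2.94 (the mitotic kinase PLK1) through -2.88 (the checkpoint kinase BUB1) to -0.83 (the spindle motor KIF11). No replication gene fell as far as this median. Over all genes tested, 36.3% were lower in KO, and 15.5% were lower by at least 2-fold. The part of a shift in cell cycle phases in the changes of the replication genes was not tested.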

How the data were processed

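Polyadenylated RNA of 3 KO and 3 WT libraries was sequenced. The authors deposited counts per gene (whole numbers) and FPKM values. Per the submitters' processing notes, reads were handled with fastp and HISAT on hg38, with no versions. No source used here gives the counting tool, annotation or strand setting. The deposited FPKM equalled count over library total and a fixed gene length for 16461 of 16461 genes with counts in at least 2 libraries (tolerance 1e-06), so they add no independent measurement.

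Counts were tested with edgeR 4.0.16 in R 4.3.3 (TMM, filterByExpr, robust quasi-likelihood F-test, group only) with Benjamini-Hochberg adjustment over 13249 genes, calling genes under 0.05. Scaling factors lay at 1.05 to 1.10 in KO and 0.92 to 0.93 in WT, and the common biological coefficient of variation was 0.0825. No 2 libraries agreed within counting noise. CPM were computed on totals times these factors. Standard errors (SE) of log2 fold changes were derived from the test, as the absolute log2 fold change over the square root of the F statistic. The ratio test is an exact permutation test.

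The members and lists were chosen with earlier results of these data known. The text names CDC6, CDT1, GMNN, MCM2 to MCM7, the largest called rise and fall of each other role group, every called change of at least 2-fold, and the 2 largest rises and falls of each context list. Other genes are given by values or ranges. Alternatives were other normalizations, filters, no robust option, a replicate block, DESeq2 1.42.0, limma 3.58.1 (voom and log2 FPKM), no chromosome 20 genes and each library left out. Medians of role groups, planned, moved with the scaling of the libraries and are not reported, and a planned search for protein motifs was not run. Gene coordinates and exon overlaps come from GENCODE 29 on GRCh38, promoters from RefSeq on GRCh38.p14.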

Additional observations from a re-analysis of the deposited data

How the results depend on the processing

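Over 18 alternatives, 17 to 26 replication genes were higher and 15 to 21 lower in KO, and no called gene turned its direction while called. The median log2 fold change of the list was 0.25 with library size alone, 0.21 with log2(FPKM + 1) and 0.24 with log2(FPKM + 0.1), and ran from -0.0374 (without KO replicate 2) to 0.0524 (without WT replicate 3) with 1 library left out. CDC6, which was never called lower, changed sign to -0.0011 with RLE normalization, -0.0047 with DESeq2, -0.0464 without KO replicate 2, -0.0111 without KO replicate 3 and -0.0183 without WT replicate 3, within a range of -0.0464 to 0.0446 over the left-out libraries. The summed MCM2 to MCM7 level, KO over WT, was 1.14 with TMM-scaled CPM and 1.13 with TMM-scaled FPKM, and 1.31 to 1.32 with 1 library left out. The log2 ratio of CDT1 to GMNN differed by -1.46 to -1.61 with 1 library left out. Calls of MCM4, DNA2, MCM7, PRIM1, PRIM2 and RPA1 were lost in at least 1 alternative, and the cause was not tested beyond the scaling itself.

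Same-numbered libraries did not deviate together (correlations -0.01, 0.01 and -0.03), so no shared deviation by number was seen. These values cannot show if same-numbered libraries were cultured or prepared together. With the number as a replicate block, 18 genes were higher and 19 lower, DNA2 being the call lost, and the CDT1 to GMNN ratio gave an exact permutation p of 0.25, the smallest 2-sided p that 3 pairs allow, so it says nothing on the strength of the difference. POLE2, with 46 counts in its shallowest library, shows what depth limits: low genes have wide errors.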
